A study of Mus musculus with 9 samples.

Results

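The genes described here encode enzymes that remodel membrane phospholipids, together with a pair of related phosphodiesterases. The 9 members were Lpcat1, Lpcat2, Lpcat3, Lpcat4, Mboat1, Mboat2, Mboat7, Smpdl3a and Smpdl3b, of 24061 gene symbols in the count table. They were chosen by symbol, and rows of 1 symbol were summed. All 9 were found, 8 of them on 1 row. RNA-seq libraries were made from bone-marrow-derived macrophages (BMDMs), primary macrophages grown from the bone marrow of wild-type female C57BL/6J mice aged 8 to 10 weeks by culture for 7 days in L-cell conditioned medium. There were 3 groups of 3 libraries. Macrophages in Veh received DMSO. Those in LPS received DMSO for 3 hr and then lipopolysaccharide, a bacterial agonist of Toll-like receptor 4, at 10 ng/mL for 2 hr. Those in T0+LPS received the LXR agonist T0901317 (T0) at 500 nM for 3 hr before the same LPS stimulation, with the agonist still in the medium. All groups had been serum-deprived for 1 day before treatment. No group with T0 but without LPS was analysed here, so each effect of T0 is given in LPS-stimulated macrophages, and the hour at which Veh was harvested is not given in the sources used here. Per the study's methods, replicates were macrophage cultures differentiated separately. Whether each came from a different mouse is not given in the sources used here, so p-values measure the spread between cultures.

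Phospholipids are rebuilt after synthesis in the Lands cycle, in which a phospholipase A removes a fatty acyl chain and a lysophospholipid acyltransferase puts another in its place. The acyltransferases differ in the lysophospholipid and the acyl-CoA they prefer, and so set how unsaturated each phospholipid class of a membrane is. LPCAT3 places polyunsaturated chains in phosphatidylcholine, and its gene is a well-known target of the liver X receptors (LXRs), nuclear receptors that bind oxysterols. In macrophages, remodeling also supplies arachidonate for eicosanoids and the lyso-lipid from which platelet-activating factor is made.

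The windows just upstream of 3 members are shown because these genes carried the largest changes: Lpcat3 in the comparison of T0+LPS with LPS, and Lpcat2 and Smpdl3b in the comparison of LPS with Veh. The sequences are those of RefSeq on GRCm38.p6, from a promoter table that matched 8 of the 9 members by symbol, and each stops before the first transcribed base. They run from 5′ to 3′ on the strand of the gene, and capitals mark CCAAT boxes (CCAAT on either strand) and GC boxes (GGGCGG on either strand). The window of Lpcat3 is chr6:124662854-124663093 on the plus strand, that of Lpcat2 is chr8:92855083-92855312 on the plus strand, and that of Smpdl3b is chr4:132757172-132757421 on the minus strand.
Lpcat3: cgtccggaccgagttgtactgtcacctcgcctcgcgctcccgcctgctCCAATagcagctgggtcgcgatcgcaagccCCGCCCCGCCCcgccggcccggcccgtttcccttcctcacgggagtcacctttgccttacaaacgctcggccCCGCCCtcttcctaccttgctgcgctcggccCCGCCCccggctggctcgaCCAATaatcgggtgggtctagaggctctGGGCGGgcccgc
Lpcat2: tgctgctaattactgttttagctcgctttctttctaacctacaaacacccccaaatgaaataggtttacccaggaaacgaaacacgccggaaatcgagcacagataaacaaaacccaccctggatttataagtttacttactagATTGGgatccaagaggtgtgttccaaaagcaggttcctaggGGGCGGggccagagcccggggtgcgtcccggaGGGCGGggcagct
Smpdl3b: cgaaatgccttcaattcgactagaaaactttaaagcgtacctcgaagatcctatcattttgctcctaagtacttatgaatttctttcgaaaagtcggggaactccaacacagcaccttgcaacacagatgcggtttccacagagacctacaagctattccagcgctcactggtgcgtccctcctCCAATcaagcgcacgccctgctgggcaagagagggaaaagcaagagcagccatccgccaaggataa

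Over the 250 bases before the start, Lpcat3 had 3 CCAAT boxes, 2 of them in the bases printed, and 5 GC boxes. Lpcat2 had 1 CCAAT box and 2 GC boxes, and Smpdl3b had 1 CCAAT box and 0 GC boxes. Among 32851 RefSeq promoters, a CCAAT box lay in the same 250 bases in 33.9% and a GC box in 32.7%. Over those 250 bases the GC content was 70.0% for Lpcat3, 51.2% for Lpcat2 and 48.8% for Smpdl3b, against a median of 52.4% for all promoters. LXR with its partner RXR is known to bind a direct repeat with a spacer of 4 bases, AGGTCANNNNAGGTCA. On either strand, the closest match to that repeat had 4 mismatches among its 12 fixed bases in each of these 3 windows. A match with at most 4 mismatches was held by 70.6% of all promoters, so such a match is common. Among the other members the closest match was in Mboat7, with 3 mismatches, a number that 18.5% of promoters reach. These letters are a description of short windows only.

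Depth was similar across libraries, with 13299044 to 16467983 counted reads in each. Levels are CPM, counts divided by library size after scaling with TMM factors, which were 1.14 in Veh and 0.931 to 0.948 in both LPS groups. Differences are log2 fold changes (log2FC) and were tested by the quasi-likelihood method of edgeR, with p-values adjusted by Benjamini-Hochberg over all genes that passed a filter on low counts, and a gene was called at an adjusted p under 0.05. The treatments were visible in genes known to respond to them: Il1b, an inflammatory cytokine gene, had a log2FC of 9.34 for LPS against Veh, beside 10.24 for the chemokine gene Cxcl1 and 6.08 for Tnf. These sizes rest on few Veh reads, with Veh means of 1.78 CPM for Il1b, 0.763 CPM for Cxcl1 and 0.0812 CPM for Tnf. Tnf had a mean of 5.84 CPM in LPS. The cholesterol exporter genes Abca1 and Abcg1 and the lipogenic regulator gene Srebf1 had log2FC of 1.47, 2.09 and 1.30 for T0+LPS against LPS. A list of 8 macrophage markers summed to 26858 to 29120 CPM in Veh, 32335 to 33722 CPM in LPS and 35138 to 36610 CPM in T0+LPS, with 1 of the 8, Itgam, at 0 in all libraries on 3 unshared bases. Markers of neutrophils, which include S100a9 at 0 on 3 unshared bases, summed to at most 4.00 CPM in any library. Those of B cells reached at most 2.45 CPM, those of dendritic cells at most 2.99 CPM and those of T cells, fibroblasts, erythroid cells and basophils or mast cells at most 0.661 CPM. The macrophage sums did not overlap between the groups, but single markers went different ways. Lyz2, the highest, had means of 19747 CPM in Veh, 21427 CPM in LPS and 23738 CPM in T0+LPS. Csf1r and Emr1 also rose in this order, and Cd14 rose from 944 CPM in Veh to 3128 CPM in LPS. Between the same groups Fcgr1 fell from 127 to 70.8 CPM and Mertk from 61.0 to 34.8 CPM, and Cd68 was at 534 and 540 CPM. Mertk was at 72.8 CPM in T0+LPS. In bulk RNA fewer cells of a type and less RNA per cell cannot be told apart, and the part of these sums in the results that follow was not tested.

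One member could not be measured. Mboat2, whose product acylates lysophosphatidylcholine and lysophosphatidylethanolamine, has 2 rows on chromosome 12 that share all but 96 of their bases, and reads on shared bases were not counted. It held 0 reads in all 9 libraries, which says nothing about its expression. The other 8 members were tested in every comparison. Their exons were counted in full, except for Lpcat3, where 2213 of 2502 bases were unshared because it overlaps Emg1, a ribosome biogenesis gene on the opposite strand.

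Scaled to the length of unshared exon as RPKM, that is CPM per kilobase, Smpdl3a had the highest level of the members in every group, at 163 ± 2.15 RPKM (SD, n = 3) in Veh, which was above 97.1% of the 13502 genes ranked. Mboat7 followed in Veh at 42.2 ± 1.92 RPKM, then Lpcat3 at 27.8 ± 0.760 RPKM, Lpcat1 at 22.9 ± 0.782 RPKM and Lpcat2 at 14.9 ± 0.315 RPKM. Smpdl3b at 5.02 ± 0.437 RPKM, Lpcat4 at 3.68 ± 0.279 RPKM and Mboat1 at 0.989 ± 0.180 RPKM were the lowest. No neighbours in this order overlapped among the Veh libraries. The order was different after stimulation. In LPS, Lpcat1 at 37.0 ± 0.256 RPKM lay above Lpcat2 at 29.4 ± 2.14 RPKM and Lpcat3 at 28.1 ± 1.00 RPKM, and the libraries of the last pair overlapped. In T0+LPS, Lpcat3 at 53.6 ± 2.12 RPKM was above Mboat7 at 45.6 ± 0.785 RPKM and second only to Smpdl3a.

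**Figure D1:**
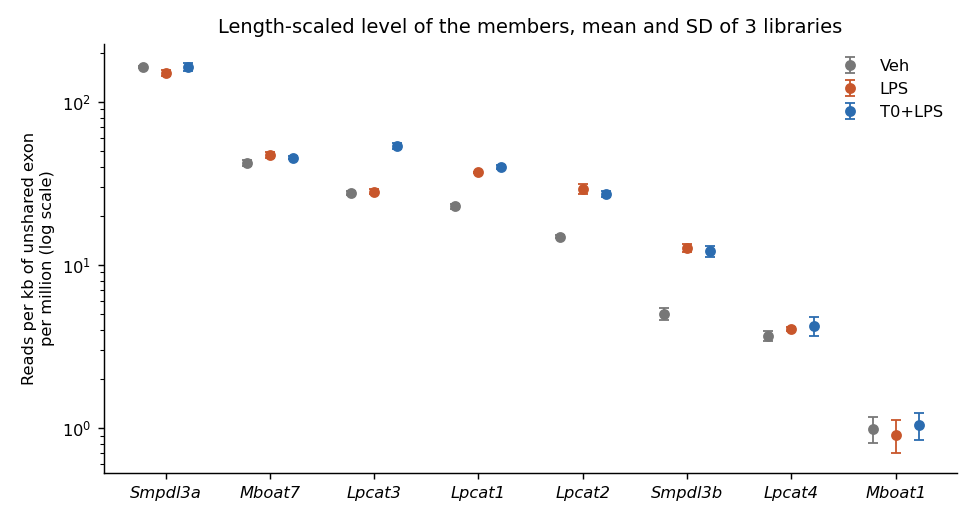
Length-scaled level of the 8 measured members in RPKM on a log axis, with the mean (point) and SD (bar) of 3 libraries in Veh, LPS and T0+LPS. Genes are ordered by their level in Veh, from Smpdl3a at 163 RPKM to Mboat1 at 0.989 RPKM, and the T0+LPS point of Lpcat3 stands above its other points.

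The first comparison was of T0+LPS with LPS, which asks what T0 adds in stimulated macrophages. All libraries were from wild-type cells, so dependence on LXR was not tested. Of the 8 members tested, Lpcat3 rose, with a fold change of 1.91, and none fell. Among all 9348 genes tested, 1.35% were called higher and 1.83% lower. The median log2FC was 0.09 over the members and 0.00 over all genes. At an unadjusted p under 0.05, 2 members were higher, Lpcat3 and Smpdl3a, and 0 were lower. The shares of 1.35% and 1.83% are for adjusted p and are no background for this count. Smpdl3a, with an edgeR p of 0.034 before adjustment, was 1059th of the 9348 genes by p. At least that many genes, in both directions together, therefore passed the unadjusted threshold. DESeq2 and limma-voom also called 1 member higher and 0 lower.

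Lpcat3 spans chr6:124663104-124704716 of mm10 (plus strand) in 13 exons. Its level was 61.4, 59.8 and 63.1 CPM in the 3 Veh libraries, 59.9, 64.4 and 62.1 CPM in the 3 LPS libraries, and 122, 113 and 120 CPM in the 3 T0+LPS libraries. All T0+LPS libraries were therefore well above all others, while Veh and LPS overlapped. With T0, its log2FC relative to LPS alone was 0.93 (SE 0.05, 95% interval 0.82 to 1.05), and edgeR's Benjamini-Hochberg adjusted p was 2.7e-08. It placed Lpcat3 9th of the 9348 genes by p and 31st among increases by size. With any 1 library left out, the value stayed between 0.91 and 0.97. Emg1, the overlapping gene, had a log2FC of 0.07 in the same comparison (edgeR adjusted p = 0.79), and the strand was not used in counting.

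The other measured acyltransferases were not called in this comparison. Lpcat1, known for saturated phosphatidylcholine in lung surfactant, was at 58.9, 59.5 and 59.7 CPM in LPS and at 62.3, 64.9 and 65.1 CPM in T0+LPS. The groups did not overlap, but the log2FC of 0.11 had an interval from -0.00 to 0.23 and an edgeR adjusted p of 0.38. Lpcat2, which can both acylate lysophosphatidylcholine and make platelet-activating factor, was at 76.3, 88.3 and 82.2 CPM in LPS and at 74.8, 79.7 and 74.5 CPM in T0+LPS. These groups overlapped, and the interval of the log2FC was -0.24 to 0.02. For Mboat7, which places arachidonate in phosphatidylinositol, the level was 131, 129 and 134 CPM in T0+LPS, within the range of 130 to 141 CPM in LPS or just below it, and the log2FC was -0.05 with an edgeR adjusted p of 0.73. Lpcat4 and Mboat1 act mainly on lysophosphatidylethanolamine and lysophosphatidylserine. Lpcat4 was at 6.47, 7.01 and 7.53 CPM in Veh, 7.53, 7.64 and 7.95 CPM in LPS and 7.23, 7.73 and 9.22 CPM in T0+LPS, with a log2FC of 0.07. Mboat1 was at 3.05, 3.24 and 2.26 CPM in Veh, 2.06, 3.28 and 2.55 CPM in LPS and 2.89, 3.62 and 2.50 CPM in T0+LPS, with a log2FC of 0.19. The groups of Mboat1 overlapped, as did LPS and T0+LPS for Lpcat4, whose highest Veh and lowest LPS libraries were both at 7.53 CPM. Mboat1 held 375 reads over all 9 libraries, and its interval of -0.30 to 0.67 leaves room for a change of either direction, so a difference was not detectable at this depth.

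Smpdl3a and Smpdl3b encode proteins related to acid sphingomyelinase, and SMPDL3B is a membrane-anchored protein known to restrain Toll-like receptor responses of macrophages. SMPDL3A is known as an LXR target in human macrophages. Smpdl3a, at chr10:57794544-57811830, was at 278, 272 and 255 CPM in LPS and at 294, 275 and 307 CPM in T0+LPS, and 1 T0+LPS library lay within the range of LPS. Its log2FC was 0.12 (95% interval 0.01 to 0.23), with edgeR p-values of 0.034 before and 0.30 after adjustment, so it did not pass. The upper bound corresponds to a fold change of 1.17, below the lower bound of 1.76 for Lpcat3. Smpdl3b was at 22.7, 25.3 and 25.2 CPM in LPS and at 22.2, 25.4 and 22.5 CPM in T0+LPS, with a log2FC of -0.06 (95% interval -0.24 to 0.12).

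**Figure D2:**
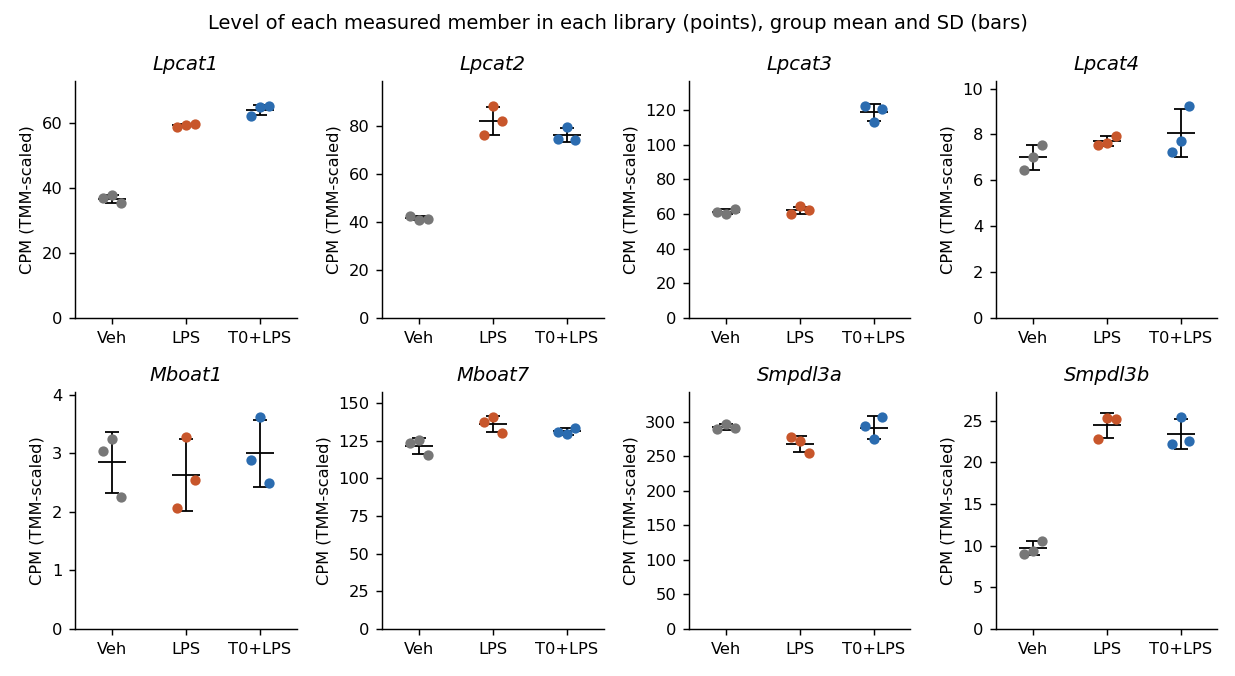
Level of each of the 8 measured members in CPM (vertical axes from 0) in Veh, LPS and T0+LPS, with 1 point per library and bars for the mean and SD of 3. Lpcat3 is near 60 CPM in Veh and LPS and between 113 and 122 CPM in T0+LPS, whereas Lpcat1, Lpcat2 and Smpdl3b are higher in both LPS groups than in Veh.

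The second comparison, of LPS with Veh, gives the response of the members to the inflammatory stimulus without T0. In this comparison 4 of 8 members rose (Lpcat1, Lpcat2, Mboat7 and Smpdl3b) and 1 fell (Smpdl3a). These counts stand against a background in which 32.9% of the 9559 genes tested were called higher and 31.2% lower, so a call in itself sets a member apart little. The median log2FC was 0.15 over the members and near 0 over all genes. Scaling by library totals in place of TMM factors moved the median of all genes to -0.28, and members with small changes depend on that choice.

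Smpdl3b had the largest change. It spans chr4:132732966-132757171 (minus strand) and was at 8.98, 9.39 and 10.6 CPM in Veh, so that all LPS libraries were above all Veh libraries. Its log2FC was 1.34 (SE 0.09, edgeR adjusted p = 1.8e-09), which is 2.53 as a fold. Lpcat2, at chr8:92855350-92919279, was at 42.8, 41.1 and 41.5 CPM in Veh. Its log2FC was 0.98 (SE 0.06, edgeR adjusted p = 3.3e-10), and the LPS libraries lay well above those of Veh. Lpcat1, at chr13:73467383-73514538, was at 36.9, 37.9 and 35.4 CPM in Veh, and had a log2FC of 0.70 (SE 0.05, edgeR adjusted p = 9.4e-09). With library totals these 3 genes were still called higher, with log2FC values of 1.06, 0.70 and 0.41.

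The other changes were small. Mboat7, at chr7:3677789-3693525 on the minus strand, was at 124, 126 and 115 CPM in Veh and at 137, 141 and 130 CPM in LPS, a log2FC of 0.17 (edgeR adjusted p = 0.008) that turned to -0.12 with library totals (adjusted p = 0.039) and was no longer called without Veh replicate 3 (adjusted p = 0.061). Smpdl3a was at 290, 297 and 291 CPM in Veh and 278, 272 and 255 CPM in LPS. Its log2FC was -0.12 (edgeR adjusted p = 0.022), -0.40 with library totals, and the call was lost without Veh replicate 2 (adjusted p = 0.083). Lpcat3 had a log2FC of 0.02 (95% interval -0.09 to 0.13), and of -0.26 with library totals (edgeR adjusted p = 3e-04), so its direction in this comparison depended on the scaling. Lpcat4 and Mboat1 had log2FC values of 0.14 and -0.10 with edgeR adjusted p of 0.30 and 0.70.

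The third comparison, of T0+LPS with Veh, shares its libraries with the other two and is no independent test. Lpcat1, Lpcat2, Lpcat3 and Smpdl3b rose and 0 members fell. At the same adjusted p under 0.05, 32.4% of the 9636 genes tested were called higher and 32.9% lower. The counts of members did not change at an unadjusted p under 0.05, for which no share over all genes was computed. DESeq2 and limma-voom gave the same counts. The log2FC values were 0.78 for Lpcat1, 0.85 for Lpcat2, 0.92 for Lpcat3 and 1.25 for Smpdl3b. Each member that was higher in LPS than in Veh by more than 0.5 on the log2 scale was also called above Veh with T0, and so was Lpcat3. With library totals the same 4 were called higher, at 0.52, 0.58, 0.66 and 0.99. Smpdl3a, at -0.03, and Mboat7, at 0.09, were not called, but with library totals both were called lower, at -0.29 (edgeR adjusted p = 9.1e-06) and -0.17 (edgeR adjusted p = 0.0018).

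**Figure D3:**
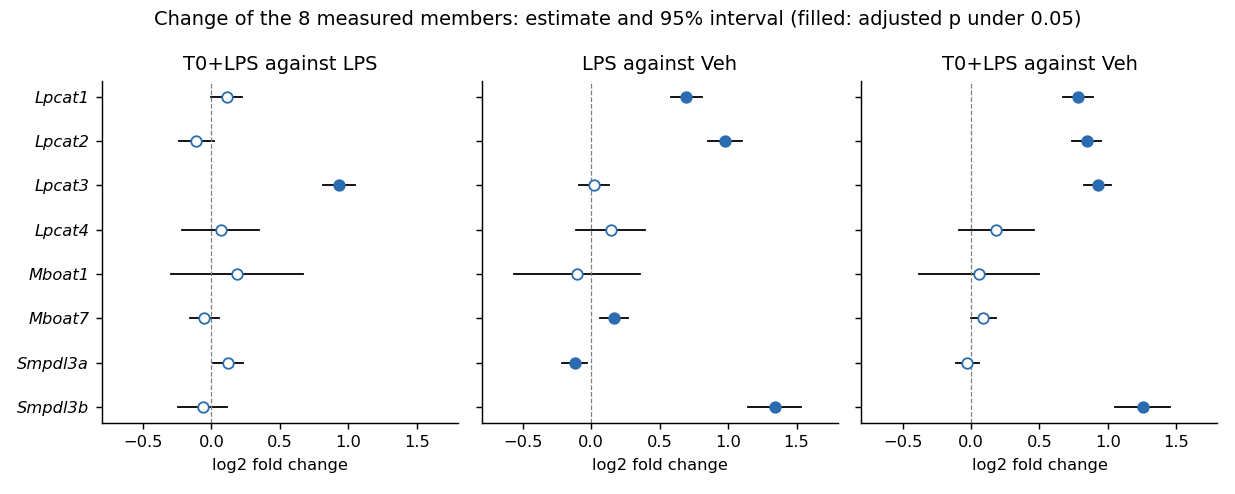
Log2 fold change of the 8 measured members (point) with its 95% interval (line) for T0+LPS against LPS, LPS against Veh and T0+LPS against Veh, filled where the adjusted p of edgeR was under 0.05. Lpcat3 is the only filled point in the first panel, at 0.93, and sits at 0.02 in the second.

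In the make-up of the Lpcat genes, LPS lay above or below both other groups for Lpcat1, Lpcat2 and Lpcat3, and between them for Lpcat4. Between Veh and T0+LPS the shares of Lpcat1 and Lpcat2 overlapped, but those of Lpcat3 and Lpcat4 did not. Of the summed RPKM of Lpcat1 to Lpcat4, Lpcat3 held 40.0%, 39.2% and 41.1% in the Veh libraries, 28.5%, 28.6% and 28.4% in LPS, and 44.3%, 41.2% and 43.0% in T0+LPS. The LPS libraries were all below the other groups in this share, and Lpcat1 and Lpcat2 were the members of this family that rose with LPS. Lpcat2 held 21.5% ± 0.398 (SD, n = 3) in Veh, 29.8% ± 1.16 in LPS and 21.8% ± 0.990 in T0+LPS. A share also falls when another gene in the sum rises, and Lpcat2 itself was not called between T0+LPS and LPS. Lpcat4 held at most 5.71% in any library, with means of 5.32% in Veh, 4.12% in LPS and 3.39% in T0+LPS. These shares do not depend on scaling between libraries and are given as a description, with no test. They are shares of mRNA, not of enzyme activity.

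**Figure D4:**
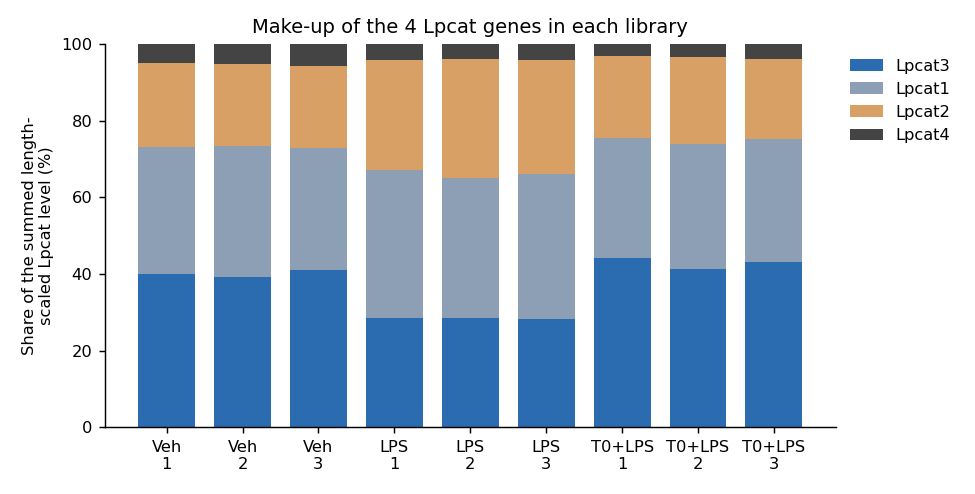
Share of the summed length-scaled level (RPKM) of Lpcat1, Lpcat2, Lpcat3 and Lpcat4 held by each gene, in percent, as 1 stacked bar for each of the 9 libraries. The Lpcat3 segment takes between 28.4% and 28.6% in LPS and between 39.2% and 44.3% in the other groups.

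The genes whose pattern over the 9 libraries was most like that of Lpcat3, by Pearson's r of log2(CPM + 1) over 9231 genes compared, were Scd1 (r = 0.988), Mylip (r = 0.982) and Scd2 (r = 0.978). Scd1 and Scd2 encode stearoyl-CoA desaturases, which make monounsaturated fatty acids, and Mylip encodes the E3 ligase that degrades the LDL receptor. The points share 9 libraries in 3 groups, so the r is mostly a comparison of group levels. Mylip was at 84.1, 88.7 and 104 CPM in LPS and at 223, 226 and 219 CPM in T0+LPS. Scd2 was at 58.8, 73.2 and 63.3 CPM in Veh, at 43.6, 42.9 and 34.7 CPM in LPS and at 638, 579 and 622 CPM in T0+LPS. Scd1 was at 8.16, 6.11 and 4.94 CPM in LPS and at 59.6, 53.1 and 60.8 CPM in T0+LPS. In these genes, as in Lpcat3, the T0+LPS libraries lay above all others, which follows from their choice by likeness to Lpcat3 in the same libraries. Scd2 was called lower in LPS than in Veh, with a log2FC of -0.68 (edgeR adjusted p = 3.9e-06).

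Other genes of phospholipid and sphingolipid metabolism were taken from 5 lists with 67 genes in all, of which 49 were tested for T0+LPS against LPS. Of these, 2 rose and 1 fell, against the background of 1.35% and 1.83% given above. Some untested genes could hardly be counted, like Mboat2, because their rows share bases. Acsl3 and Chkb had 0 unshared bases, Lclat1 21 and Chka 60. Others, such as Elovl2 on 3837 unshared bases, held few reads. The lists were therefore covered in part only, with 9 of 17 genes tested for new phospholipid synthesis. Elovl5, which lengthens polyunsaturated fatty acids, rose from 134, 125 and 125 CPM in LPS to 209, 186 and 207 CPM in T0+LPS, with a log2FC of 0.65 (edgeR adjusted p = 3e-06). Sgms2, a sphingomyelin synthase of the plasma membrane, rose from 22.7, 16.2 and 20.0 CPM to 27.1, 27.4 and 28.6 CPM, a log2FC of 0.50 (edgeR adjusted p = 0.012, and 0.053 without T0+LPS replicate 3). Acsl1, which activates long-chain fatty acids, fell from 159, 156 and 160 CPM to 116, 145 and 134 CPM. Its log2FC was -0.26 (edgeR adjusted p = 0.038), and the call held in 1 of the 6 fits that left out a library, with adjusted p up to 0.16. In each of these 3 genes the T0+LPS libraries did not overlap with the LPS libraries. The same was so for list genes that were not called, such as Sptlc2 and Agpat6, so this sets the 3 genes apart little.

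By list, the group of acyl-CoA supply, with the elongases, desaturases and acyl-CoA synthetases, had 1 gene higher and 1 lower of 7 tested. Sphingomyelin and ceramide metabolism had 1 higher and 0 lower of 17, with 1 higher and 5 lower at an unadjusted p under 0.05 and 0 lower by DESeq2 and limma-voom. Among the other acyltransferases, 0 of 8 were called, with 3 higher at an unadjusted p under 0.05. The phospholipases A and lysophospholipases, which are 1 list, had 0 of 8 called, with 1 lower at an unadjusted p under 0.05. The genes of new phospholipid synthesis had 0 of 9 called, with 1 higher at an unadjusted p under 0.05. DESeq2 and limma-voom also called 0 genes in these last 3 lists. The median log2FC values of the 5 lists lay between -0.12 and 0.06. For the counts at an unadjusted p under 0.05, no share over all genes was computed. Agpat1, with an edgeR p of 0.041 before adjustment, was 1175th of the 9348 genes by p. At least that many genes, in both directions together, passed this threshold, so these counts set the lists apart little.

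LPS against Veh moved more of these genes, 20 higher and 11 lower of 50 tested, in a background of 32.9% and 31.2%. Among the other acyltransferases 4 rose and 2 fell of 9. Agpat4, an acyltransferase of lysophosphatidic acid, had a log2FC of 1.74, and Gpam, which begins glycerolipid synthesis at the mitochondrion, one of -0.85. Agpat6, a glycerol-3-phosphate acyltransferase of the endoplasmic reticulum, was at 0.32, but at 0.04 and not called with library totals, and Agpat2 was at -0.19. Among the phospholipases A and lysophospholipases 4 rose and 2 fell of 8. Pla2g4a, the cytosolic phospholipase that releases arachidonate, was at 0.59 and the lysosomal Pla2g15 at -0.41. Pla2g16 was at 0.92 and the lysophospholipase Pnpla7 at -0.50. Acyl-CoA supply had 2 genes higher and 2 lower of 7. Acsl1 had a log2FC of 1.29 and the desaturase Fads1 of -0.56, and Acsl5, which also activates fatty acids, was at 0.80. New phospholipid synthesis had 2 higher and 1 lower of 9, with Cept1, which makes phosphatidylcholine and phosphatidylethanolamine in the final step, at 0.61. The phosphatidylserine synthase Ptdss2 was at -0.27. The call of the ethanolamine kinase Etnk1 was not stable: its log2FC of 0.12 (edgeR adjusted p = 0.045) turned to -0.16 with library totals, was not called by DESeq2 (adjusted p = 0.077) or with the replicate block (edgeR adjusted p = 0.079), and held in 2 of the 6 fits that left out a library, with adjusted p up to 0.18. Sphingomyelin and ceramide metabolism had 8 higher and 4 lower of 17, with the sphingomyelin synthase Sgms1 at 1.74, the ceramide synthase Cers6 at 1.66, the ceramide kinase Cerk at -0.95 and the neutral sphingomyelinase Smpd2 at -0.59. Sgms1 has 3 rows, and with rows tested on their own the value of its tested row with most reads was 2.66. All genes named here passed at an adjusted p under 0.05 from edgeR in the main scaling. With library totals several kept their direction and call but moved by over 1.5 times, Agpat2 to -0.47, Pla2g4a to 0.31, Pla2g15 to -0.70, Pnpla7 to -0.79, Acsl5 to 0.51, Fads1 to -0.84, Cept1 to 0.33 and Ptdss2 to -0.55.

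**Figure D5:**
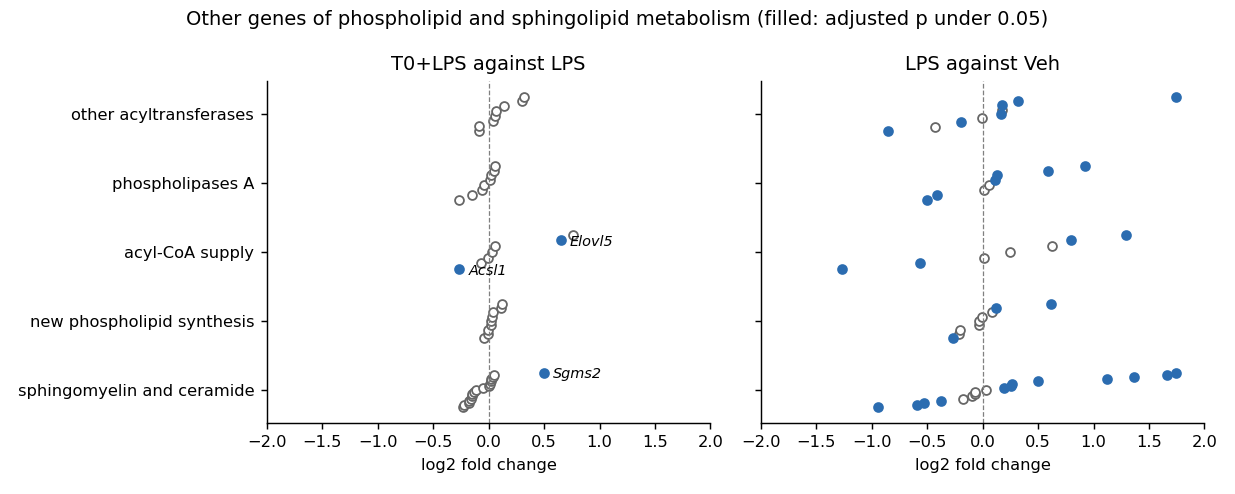
Log2 fold change of each tested gene in 5 lists of phospholipid and sphingolipid metabolism for T0+LPS against LPS (left) and LPS against Veh (right), filled where the adjusted p of edgeR was under 0.05. On the left 3 of 49 genes are filled, Elovl5, Sgms2 and Acsl1, and on the right 31 of 50.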

How the data were processed

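RNA-seq counts of 9 libraries, 3 each of Veh, LPS and T0+LPS, were grouped by the labels. Per the study's methods, the authors selected polyadenylated RNA, trimmed reads with cutadapt, aligned them with HISAT2 to the transcriptome of mm10 and used featureCounts on RefSeq genes, and they deposited whole read counts without normalization. In the table of 32850 rows, the 6696 rows with no base of their own held 0 reads, also the 100 whose bases were shared only with the other strand. Reads on shared bases are therefore missing from the deposited counts and strand was not used. Tables of the authors' own comparisons (fold values and adjusted p-values) were not used.

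Counts were summed by symbol and tested with edgeR 4.0.16 in R 4.3.3 (filterByExpr, TMM factors, quasi-likelihood test, Benjamini-Hochberg adjustment, 6 libraries per fit). RPKM was computed here from CPM and unshared exon bases. Alternatives were single rows, DESeq2 1.42.0, limma-voom 3.58.1, other scalings and filters, a fit of all 9 libraries, a replicate block, an adjusted p of 0.1 and leaving out each library. The code was tested on simulated data. Library totals were 13299044 to 16467983, and intervals cover the spread between libraries. Replicates differed by more than sampling noise and were counted as 9 samples. The members and gene lists were chosen with earlier results of these data known. The alternatives for list genes and the CCAAT and GC boxes were added after seeing the data. Every member is named. List genes are named where called with a mean of at least 5 CPM, at most 4 per list for T0+LPS against LPS and 2 per list and direction for LPS against Veh, by size, and likeness to Lpcat3 names the first 3 genes.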

Additional observations from a re-analysis of the deposited data

How the results depend on the processing

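For T0+LPS against LPS, the 8 members kept their direction and their side of the threshold in all 80 results of the alternatives that kept every library and in 47 of 48 that left out 1 library; the exception was Lpcat4, whose log2 fold change ranged from -0.040 (without T0+LPS replicate 3) to 0.14. The other comparisons depended on scaling. With library totals, 3 members were lower in LPS than in Veh, and 2 were lower in T0+LPS than in Veh. The log2 fold changes that turned with library totals were, for LPS against Veh, -0.26 for Lpcat3, -0.14 for Lpcat4, -0.12 for Mboat7 and -0.16 for Etnk1, and, for T0+LPS against Veh, -0.077 for Lpcat4, -0.20 for Mboat1 and -0.17 for Mboat7. Values near 0 also turned. For LPS against Veh, Lpcat3 was at -0.00705 without a filter and, with 1 library left out, ranged from -0.019 (without LPS replicate 2; also below 0 without Veh replicate 2) to 0.042, and Mboat1 ranged from -0.31 to 0.042 (without LPS replicate 1). For T0+LPS against Veh, Smpdl3a was at 0.0015 with all 9 libraries and ranged from -0.052 to 0.026 (without T0+LPS replicate 2), and Mboat1 ranged from -0.092 (without T0+LPS replicate 2; also below 0 without Veh replicate 3) to 0.19. The members lower in LPS than in Veh numbered 0 to 1 with 1 library left out, and 0 without Veh replicate 2. The cause of these changes was not tested beyond the construction of each alternative. Mboat7, at an edgeR adjusted p of 0.077 for T0+LPS against Veh, passed in the fit of all 9 libraries (edgeR adjusted p = 0.036) and with RLE factors (edgeR adjusted p = 0.04), and for LPS against Veh it did not pass without Veh replicate 3 (edgeR adjusted p = 0.061).

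Same-numbered libraries did not deviate together, with correlations of deviations between -0.05 and 0.05, so the numbers were not read as pairs. With the replicate number as a block, 1 member was higher and 0 lower in T0+LPS than in LPS, 4 higher and 1 lower in LPS than in Veh, and 4 higher and 0 lower in T0+LPS than in Veh, as without it. Low depth limits Mboat1 and Lpcat4, and Mboat2 could not be measured.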
